A study of Mus musculus with 2 samples.

Results

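The genes examined were the 6 that carry out bile acid uptake and bile acid sensing in the ileum: Slc10a2, Fabp6, Nr1h4, Fgf15, Nr0b2 and Gpbar1. They were chosen by function, out of 22367 protein-coding genes of the annotation, by a rule that used no value measured here. Earlier results of these data were known when they were chosen. For each gene, peaks of open chromatin within 1 kb of any annotated start site were taken as promoter peaks, and all other peaks in the gene body and 50 kb on each side as distal peaks. Open chromatin was mapped by ATAC-seq, an assay whose transposase cuts accessible DNA and tags it for sequencing. The material was enteroids, epithelial cultures grown from the ileal crypts of mice aged 4 months on a C57Bl6/129sv background. Control enteroids carried Taf4 lox/lox alleles without Cre. Taf4-inactivated enteroids carried the same alleles together with VilCreERT2, a Cre recombinase that is driven by the Villin promoter in the intestinal epithelium and becomes active with 4-hydroxytamoxifen (4-OHT). Per the study's methods, both received 4-OHT (1 µM) during 3 days of culture. Taf4 encodes a subunit of TFIID, the general transcription factor that binds core promoters, and the comparison addresses open chromatin early after its loss. Since the controls lack Cre, loss of Taf4 and activity of the recombinase itself cannot be told apart. How many mice or cultures each library came from is not given in the sources used here.

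Bile acids are made from cholesterol in the liver, secreted into the gut and reclaimed in the terminal ileum, where the apical transporter Slc10a2 takes them up, Fabp6 binds them in the cytosol and the Slc51a-Slc51b transporter exports them to the blood. Inside the enterocyte they activate the nuclear receptor FXR, the product of Nr1h4, which binds DNA with RXR, typically at inverted repeats of a hexamer spaced by a single base (IR-1), and induces Fabp6, Fgf15, Nr0b2 and the export transporter. FGF15 travels to the liver and represses bile acid synthesis through Fgfr4 and Klb. SHP, the product of Nr0b2, is a repressor that lacks a DNA-binding domain, and Gpbar1 encodes TGR5, a bile acid receptor of the cell surface.

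With a single unreplicated library for each genotype, the values describe 2 libraries and carry no p-value. The authors called peaks separately in each library, 90445 in control and 71282 in Taf4-inactivated enteroids. From the fold enrichment and p of each peak, the depth of the control library was estimated at 1.65 times that of the Taf4-inactivated library. Because fold enrichment is relative to the background of its own library, each peak is given by its percentile of fold enrichment within its list, with 100 the highest. A difference in percentile is always Taf4-inactivated minus control, and one of 25 points or more was called. A peak had a partner, or was shared, when it overlapped a peak of the other list by at least 1 bp. Peak positions are on mm9. The lists cannot show whether the floxed exons were removed, and the genotype was taken from the labels. The cultures hold several cell types, so fewer cells with an open site and a less open site per cell cannot be told apart. Of 10 markers of the intestinal epithelium, 9 had a promoter peak in control and 10 in Taf4-inactivated enteroids. Of 5 immune markers none had one in either list, of 6 mesenchymal markers 3 had one in both, and of 3 endothelial markers 2 had one in control and 1 in Taf4-inactivated enteroids. Of the 14 markers with a promoter peak in both lists, 4 ranked lower by 25 points or more after Taf4 inactivation and 0 higher, where 9.08% and 5.93% of coding genes did. These were Kdr of the endothelium (93.1 in control and 35.9 after Taf4 inactivation), Pdgfra (74.3 and 33.3) and Des (81.9 and 53.2) of the mesenchyme and Krt18 of the epithelium (68.7 and 36.4). The third mesenchymal marker with both peaks, Col1a1, stood at 10.7 and 18.1, and the endothelial Pecam1 at 21.8 in control alone. The part of these shifts in the differences given here was not tested.

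All 6 genes had a promoter peak in control enteroids and 4 of 6 had one in Taf4-inactivated enteroids, against 68.4% and 65.6% of coding genes. Fabp6 and Gpbar1 had a promoter peak in control alone, as did 5.70% of coding genes, and none of the 6 had one in Taf4-inactivated enteroids alone, as did 2.90%. By fold enrichment the 4 shared promoters all ranked higher in the Taf4-inactivated list, by 8.91 to 26.8 points, while the median over 14014 coding genes was −2.77 with quartiles of −10.6 and 2.36. That background was not matched on control rank. In control the 4 stood at 46.6 to 77.8, and the median coding gene with a promoter peak at 86.5. At Slc10a2 the peaks compared shared only 20 bp. At Nr0b2 the direction turned when peaks were ranked by −log10 p (−9.31) or by width (−11.0). One of these differences, at Fgf15, passed 25 points, as did 5.93% of coding genes in this direction, and none did in the other direction, as did 9.08%. In the control list all 6 promoter peaks ranked below the median of coding genes with a promoter peak, 86.5. In the Taf4-inactivated list 3 of the 4 did, and Nr1h4 lay above the median of 81.5. The place of Slc10a2 depended on the limit of 1 kb. With 2 kb its highest promoter peak stood at 95.6 in control and 98.2 in Taf4-inactivated enteroids. Its difference was then 2.61 points. The count of genes with a peak depended on the strength required. With a −log10 q of at least 2, 3 genes retained a control promoter peak and 4 a Taf4-inactivated one, which reverses the order. The shares over all coding genes at this limit are not given here, so the reversal cannot be read as particular to these genes. The lowest −log10 q in either list was 1.01.

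**Figure D1:**
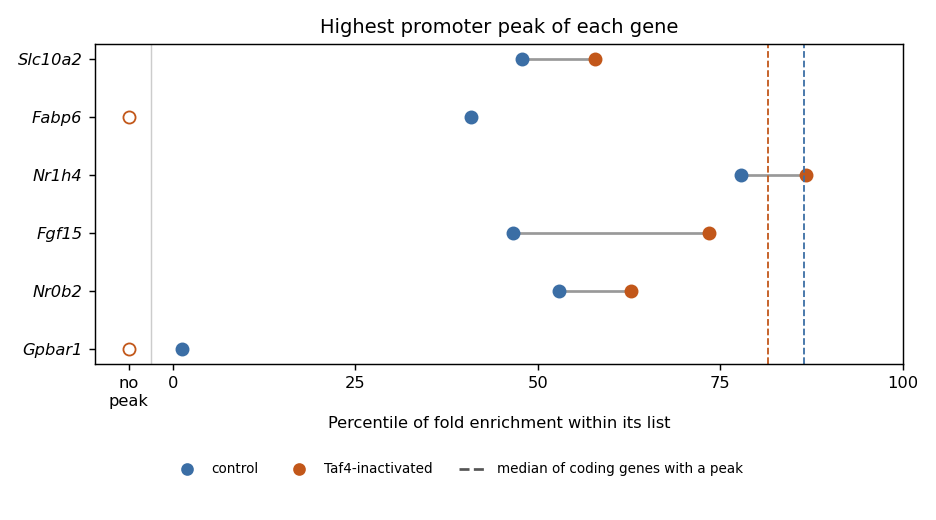
Percentile of fold enrichment (horizontal axis, 0 to 100 within each list) of the highest promoter peak of each gene, in control (blue) and Taf4-inactivated enteroids (orange), 1 library each. Open circles mark no peak, and dashed lines the median of coding genes with a promoter peak (86.5 and 81.5); the 4 genes with both peaks lie further right in orange, and Fabp6 and Gpbar1 have none in orange.

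Slc10a2 (ENSMUSG00000023073.1, chr8:5085623-5105232, minus strand) encodes the sodium-dependent transporter that takes bile acids up from the lumen. Its promoter peak stood at percentile 47.8 in the control list and at 57.8 in the Taf4-inactivated list, a difference of 9.98 points. These peaks shared only 20 bp. The control peak, chr8:5104899-5105168, had its centre in the coding part of the first exon, and the Taf4-inactivated peak, chr8:5105149-5105476, had its centre 80 bp upstream of the start. The stretch below holds the bases before the RefSeq start site of Slc10a2 and is shown because it overlaps the Taf4-inactivated promoter peak and not the control one. RefSeq promoters were taken on GRCm38.p6 and located on mm9 by an exact match of their 250 upstream bases, here chr8:5105288-5105537 on the minus strand. Capitals mark, in order, a match to the pattern of HNF1, GTTAATNATTAAC with at most 2 mismatches, one to that of CDX, TTTATNG, one to that of AP-1, TGANTCA, and 2 further matches to that of CDX.
Slc10a2 upstream: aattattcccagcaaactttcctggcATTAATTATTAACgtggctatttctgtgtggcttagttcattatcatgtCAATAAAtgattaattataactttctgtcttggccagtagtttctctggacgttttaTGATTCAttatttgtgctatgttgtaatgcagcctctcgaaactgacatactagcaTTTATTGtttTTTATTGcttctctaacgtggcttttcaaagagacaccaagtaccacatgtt
The 3 CDX matches and the AP-1 match lay inside the peak, and the HNF1 match lay outside it, at chr8:5105499-5105511. Of 32851 RefSeq promoters of 300 bases, 10.9% held a CDX match, 7.81% an AP-1 match and 1.36% an HNF1 match.

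A stronger site stood 1.86 kb upstream of Slc10a2 in intergenic DNA. In control it was the peak chr8:5106908-5107275, with a fold enrichment of 2.95 and a −log10 q of 6.58, at percentile 95.6. After Taf4 inactivation it was chr8:5106793-5107254, with a fold enrichment of 4.74 and a −log10 q of 14.4, at percentile 98.2. It was thus among the highest peaks of both lists, unlike the promoter peak. The ratio of the fold enrichments was 1.61, at percentile 92.9 of 35143 distal pairs, whose median ratio was 1.22. The 200 bases at the centre of the Taf4-inactivated peak, chr8:5106924-5107123 on the minus strand, held none of the 7 patterns searched. They are shown as the strongest site of the transporter gene.
Slc10a2 upstream peak: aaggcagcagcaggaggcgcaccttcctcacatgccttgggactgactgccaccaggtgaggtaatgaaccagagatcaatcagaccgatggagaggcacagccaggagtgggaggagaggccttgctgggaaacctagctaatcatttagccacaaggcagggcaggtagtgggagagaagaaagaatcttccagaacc
Little else was called around Slc10a2. A weak peak 59.9 kb downstream was shared (percentiles 52.6 and 60.9), a control peak 24.5 kb downstream had no partner (percentile 53.1), and so had a Taf4-inactivated peak 24.0 kb upstream (percentile 38.5). With 3 distal peaks in each list, the gene lay at percentile 26.8 of coding genes by control and 30.4 by Taf4-inactivated peaks.

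Fabp6 (ENSMUSG00000020405.4, chr11:43409551-43415042, minus strand) encodes the ileal bile acid binding protein. In control enteroids its promoter peak, chr11:43414974-43415340, spanned the start site, with a fold enrichment of 1.99 and a −log10 q of 1.51, at percentile 40.9 of the list and 15.0 of promoter peaks of coding genes. In Taf4-inactivated enteroids no promoter peak was called, and the nearest peak began 11271 bp away. Of 643 coding genes whose control promoter peak ranked from 40 to under 50, 24.0% had none in Taf4-inactivated enteroids. The depth of the Taf4-inactivated library was the lower one, and its part in this absence was not tested. The study's RNA sequencing of enteroids at the same stage listed Fabp6 among genes upregulated after Taf4 loss. The missing peak therefore cannot be read as lower expression. The bases before the RefSeq start of Fabp6, chr11:43415065-43415314 on the minus strand, lay wholly inside the control peak. They are shown because they hold, in capitals, 2 matches to IR-1, the recognition sequence of FXR, searched as AGGTCANTGACCT with at most 2 mismatches.
Fabp6 upstream: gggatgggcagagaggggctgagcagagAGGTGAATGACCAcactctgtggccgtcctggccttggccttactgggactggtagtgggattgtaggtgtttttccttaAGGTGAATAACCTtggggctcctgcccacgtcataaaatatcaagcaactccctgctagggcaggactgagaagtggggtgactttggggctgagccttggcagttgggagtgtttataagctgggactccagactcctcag
Both matches, AGGTGAATGACCA at chr11:43415274-43415286 and AGGTGAATAACCT at chr11:43415194-43415206, had 2 mismatches. Of the RefSeq promoters 1.14% held such a match, and Fabp6 was the only one of the 5 genes found in that set to do so.

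The distal peaks of Fabp6 were 15 in the control and 10 in the Taf4-inactivated list, and 6 control peaks and 1 Taf4-inactivated peak had no partner in the other list. The strongest site, 41.7 kb upstream in intergenic DNA, ranked alike in both, at percentile 94.1 as chr11:43456354-43457153 in control and at 94.05 as chr11:43456515-43457043 in Taf4-inactivated enteroids. Downstream of the gene, peaks inside the neighbour Ccnjl differed in both directions. In an intron of Ccnjl the peak 23.4 kb downstream stood at percentile 85.3 in control and 40.2 after Taf4 inactivation, a difference of −45.1, and the one 16.2 kb downstream, in a coding exon, at 53.0 and 18.8. That exon peak was 593 bp wide in control and 2014 bp wide after Taf4 inactivation, and the part of width in its rank was not tested. The intron peak 52.1 kb downstream stood at 49.3 in control and 83.7 after Taf4 inactivation, a difference of 34.5 points, and that 49.6 kb downstream at 80.4 and 81.7. Upstream, the peaks at 24.9 kb (45.9 and 78.5) and 20.4 kb (15.4 and 46.7) also passed 25 points. The control peaks without a partner ranked between 14.5 and 62.6.

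Nr1h4 (ENSMUSG00000047638.9, chr10:88916979-88996330, minus strand) encodes FXR. It has 3 annotated start sites, the most upstream at 88996330 and a pair at 88969394 and 88969403. The most upstream one had the highest promoter peak of the 6 genes in both lists, at percentile 77.8 in control (chr10:88995900-88996544, fold enrichment 2.26) and 86.7 in Taf4-inactivated enteroids (chr10:88995850-88996571, fold enrichment 3.47). This was a difference of 8.91 points, and 9.71 when peaks were ranked by width. The internal start sites had a peak in Taf4-inactivated enteroids alone, chr10:88969151-88969536, at percentile 46.0 with a −log10 q of 2.20, and the nearest control peak lay 1877 bp away. The RefSeq promoter of Nr1h4 belongs to the internal start, and its 250 upstream bases, chr10:88969404-88969653 on the minus strand, are shown because they overlap that peak. Capitals mark a match to AGATAA, the pattern of GATA factors, here on the opposite strand, and one to HNF1 with 2 mismatches, both inside the peak. A GATA match was held by 11.2% of RefSeq promoters.
Nr1h4 upstream: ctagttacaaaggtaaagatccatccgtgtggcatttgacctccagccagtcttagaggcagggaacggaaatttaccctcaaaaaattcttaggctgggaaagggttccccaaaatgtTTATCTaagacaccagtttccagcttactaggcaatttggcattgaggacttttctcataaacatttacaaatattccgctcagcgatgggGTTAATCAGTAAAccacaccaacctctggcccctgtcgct

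**Figure D2:**
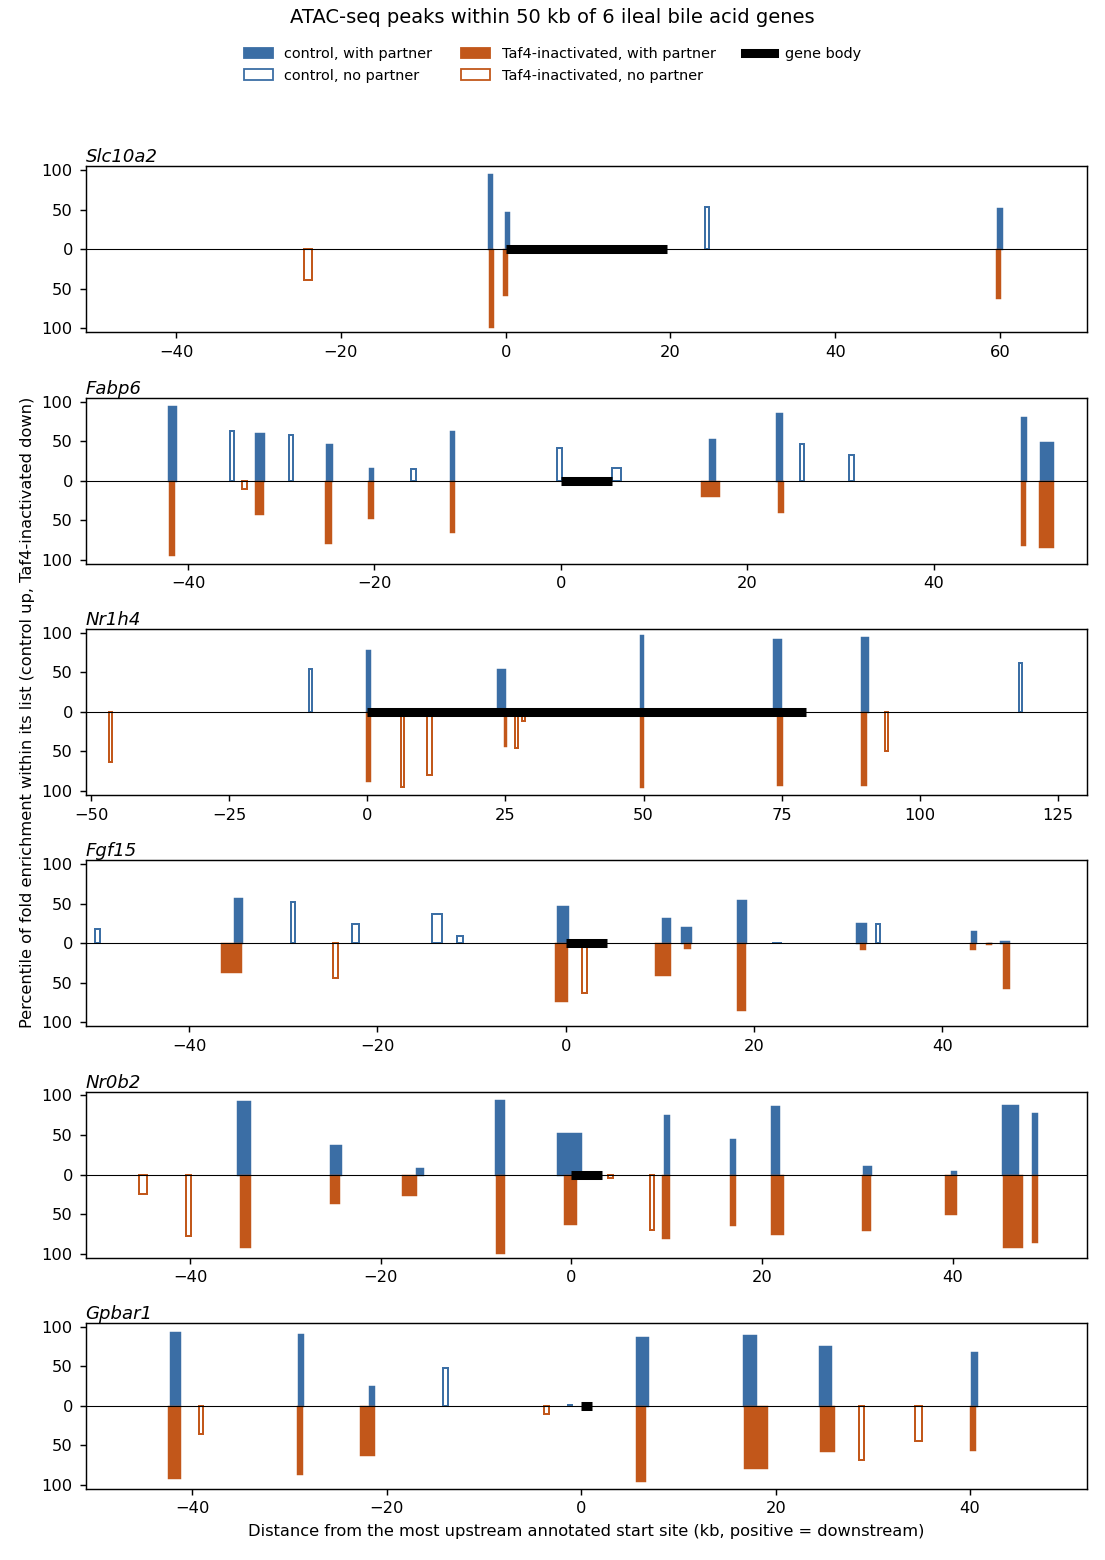
Peaks around each gene against the distance from its most upstream start site in kb, with control peaks drawn upward and Taf4-inactivated peaks downward to their percentile of fold enrichment (vertical axis, 0 to 100 each way). Filled bars have a partner in the other list and open bars have none, the black line is the gene body, and bars are drawn at least 500 bp wide; Nr1h4 holds 2 tall open orange bars (79.8 and 94.95), and no open blue bar passes 62.6.

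The body of Nr1h4 held the highest distal peaks without a partner near any of the 6 genes. Near the most upstream start, the Taf4-inactivated list held the intron peaks chr10:88989801-88990212, at percentile 94.95 with a fold enrichment of 4.15 and a −log10 q of 10.7, and chr10:88984575-88985505, at percentile 79.8 with a fold enrichment of 3.13 and a −log10 q of 5.38. Their centres lay 6.32 and 11.3 kb downstream of that start, and the nearest control peaks were 5688 and 10395 bp away. In the Taf4-inactivated list as a whole, 14.4% of distal peaks at percentile 75 or more had no partner. The 200 central bases of the first of these peaks, chr10:88989907-88990106 on the minus strand, held 2 matches to AP-1, in capitals, and are shown as the strongest site called in 1 list alone.
Nr1h4 intron peak: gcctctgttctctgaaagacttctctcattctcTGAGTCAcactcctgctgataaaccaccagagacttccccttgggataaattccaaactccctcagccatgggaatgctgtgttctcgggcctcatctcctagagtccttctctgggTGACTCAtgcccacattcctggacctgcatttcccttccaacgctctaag
Of the distal intron peaks deeper in the gene, the Taf4-inactivated peak chr10:88967920-88968267 had no partner, and the others were shared. At 49.6 kb downstream, chr10:88946588-88946857 stood at percentile 97.3 in control and its partner at 94.6, and at 74.2 kb, chr10:88921392-88922948 stood at 92.2 and its partner at 92.1. The start of the neighbour Gas2l3, 90.0 kb downstream, stood at 94.9 and 92.2. In all, Nr1h4 had 6 distal peaks in control, 2 of them without a partner, and 9 in Taf4-inactivated enteroids, 5 of them without a partner.

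Fgf15 (ENSMUSG00000031073.5, chr7:152082437-152086858, plus strand) encodes the hormone by which the ileum signals to the liver. Ranked by fold enrichment it showed the widest difference of the 4 shared promoters, whereas by −log10 p or width that of Slc10a2 was wider. Its promoter peak stood at percentile 46.6 in control (chr7:152081562-152082728, fold enrichment 2.01, −log10 q 2.76) and at 73.4 in Taf4-inactivated enteroids (chr7:152081319-152082574, fold enrichment 2.91, −log10 q 7.32), a difference of 26.8 points. The call rested on the measure, since the difference was 9.25 points when peaks were ranked by −log10 p and 6.07 by width. The non-coding RNA Gm17685 starts within 1 kb of the same peak, so the peak cannot be assigned to Fgf15 alone.

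Inside the Fgf15 gene, an intron peak 1.98 kb downstream of the start was called in Taf4-inactivated enteroids alone, chr7:152084312-152084532, at percentile 63.2 with a −log10 q of 5.06, and the nearest control peak was 1584 bp away. This peak too lies within 1 kb of a start site of Gm17685 and cannot be assigned to Fgf15 alone. Its window held the closest IR-1 match of any peak near the 6 genes, with 1 mismatch, at chr7:152084400-152084412. This site stood second among the distal peaks of Fgf15 in that list. The first was the start of the neighbour Oraov1, 18.7 kb downstream, at percentile 54.4 in control and 84.1 after Taf4 inactivation, a difference of 29.7 points. A site 46.6 kb downstream, beyond the start of Ccnd1, stood at 3.345 and 56.8, a difference of 53.45 points. In control the highest distal peak was at the start of Fgf4, 34.8 kb upstream, at 57.7, and its partner stood at 36.5. Next after Oraov1 in that list came a peak 29.0 kb upstream, at 52.1, which had no partner. Of 15 control distal peaks 7 had no partner, against 2 of 10 in Taf4-inactivated enteroids.

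Nr0b2 (ENSMUSG00000037583.2, chr4:133109291-133112451, plus strand) encodes the repressor SHP. Its promoter peak spanned 2531 bp in control (chr4:133107746-133110276) and 1220 bp in Taf4-inactivated enteroids (chr4:133108510-133109729), at percentiles 52.9 and 62.8. The difference of 9.83 points turned to −9.31 when peaks were ranked by −log10 p and to −11.0 by width, so its direction depended on the measure. The 250 bases before the RefSeq start, chr4:133109041-133109290 on the plus strand, lay inside the peaks of both lists and held none of the patterns, HNF4 and NR5A2 included, which 0.475% and 1.56% of RefSeq promoters held. Further upstream, both promoter peaks held a CDX match at chr4:133109016-133109022 and an AP-1 match at chr4:133109007-133109013. The 250 bases are shown because all of them lay under a peak in both lists.
Nr0b2 upstream: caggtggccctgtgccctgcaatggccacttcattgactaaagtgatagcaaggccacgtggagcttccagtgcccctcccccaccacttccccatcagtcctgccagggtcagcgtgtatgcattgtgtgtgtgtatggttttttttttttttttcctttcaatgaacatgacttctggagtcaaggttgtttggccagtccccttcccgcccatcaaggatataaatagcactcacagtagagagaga

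Of the 6 genes, Nr0b2 had the most distal peaks in Taf4-inactivated enteroids. It had 11 in control, all with a partner, and 15 in Taf4-inactivated enteroids, 4 of them without one, which placed it at percentiles 69.1 and 95.1 of coding genes. The highest was at the start of the neighbour Nudc, 7.51 kb upstream. There the control peak chr4:133101303-133102258 stood at percentile 94.2 with a −log10 q of 9.05, and the Taf4-inactivated peak chr4:133101410-133102225 at 99.5 with a −log10 q of 26.7. The ratio of fold enrichments, 1.89, was at percentile 98.9 of distal pairs. The start of 1810019J16Rik, 34.4 kb upstream, stood at 93.3 and 91.9, and an intergenic peak 46.05 kb downstream at 87.6 and 91.3. The widest difference was at the start of Gpn2, 31.0 kb downstream, at 11.4 in control and 70.7 after Taf4 inactivation, or 59.3 points. A peak 40.1 kb downstream, at 4.78 and 50.4, also passed 25 points.

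Among the Nr0b2 peaks without a partner, an intergenic one 40.2 kb upstream, chr4:133068957-133069317, stood at percentile 78.3 with a −log10 q of 4.83. The one closest to the gene, chr4:133113229-133113604, lay 4.12 kb downstream of the start and ranked low, at 4.58. It is shown for its IR-1 match with 2 mismatches, in capitals with 10 bases on each side, at chr4:133113412-133113444 on the plus strand.
Nr0b2 IR-1: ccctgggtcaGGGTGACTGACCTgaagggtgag

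Gpbar1 (ENSMUSG00000064272.3, chr1:74325124-74326198, plus strand) encodes TGR5, the bile acid receptor of the cell surface. Its control promoter peaks were near the floor of the list. One, chr1:74323748-74324191, lay 933 bp upstream of the start at percentile 1.25 with a −log10 q of 1.41, and the other, chr1:74325574-74325942, lay over the coding exon at 0.291 with a −log10 q of 1.27. No promoter peak was called in Taf4-inactivated enteroids, where the nearest peak to the first was 2075 bp away. Of 631 coding genes whose control promoter peak ranked under 10, 27.6% had none after Taf4 inactivation. As for Fabp6, the lower depth of that library moves with this absence and its part was not tested.

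Most of the strong peaks near Gpbar1 were at other genes. The start shared by Aamp and Pnkd, 6.23 kb downstream, stood at percentile 86.7 in control and 95.5 after Taf4 inactivation, with a −log10 q of 10.4 and 29.3, and its fold ratio of 1.73 was at percentile 96.7 of distal pairs. The start of Arpc2, 41.8 kb upstream, stood at 93.8 and 91.8, an intron of Arpc2 28.9 kb upstream at 90.5 and 86.8, and a start of Tmbim1 17.3 kb downstream at 90.0 and 79.0. These sites had peaks in both lists. A second intron site of Arpc2, 21.6 kb upstream, stood at 25.5 and 62.7, a difference of 37.2 points. Gpbar1 had 8 distal peaks in control, 1 without a partner, and 11 in Taf4-inactivated enteroids, 4 without a partner.

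Over all 6 genes there were 58 distal peaks in each list, and 17 in each, 29.3% (95% confidence interval 18.1 to 42.7, Clopper-Pearson), had no partner. The interval covers counting error only. The background, over all distal peaks of coding genes, was 52.0% for the control list and 39.3% for the Taf4-inactivated list. Both shares of these genes were lower. Their peaks cluster around 6 genes and are not independent, so the interval cannot serve as a test against the background. Many of the 58 stood at start sites of other genes, 15 in control and 17 in Taf4-inactivated enteroids, and only 1 of those in each list had no partner. Away from such start sites, 16 of 43 control peaks (37.2%, 23.0 to 53.3) and 16 of 41 Taf4-inactivated peaks (39.0%, 24.2 to 55.5) had none, against backgrounds of 60.2% and 47.8%. The equal shares depended on the strength required. With a −log10 q of at least 2 in both lists, 33 control and 46 Taf4-inactivated distal peaks were left, of which 18.2% and 41.3% had no partner. The shares over all distal peaks at this limit are not given here, so the change cannot be read as particular to these genes. The equal totals concealed opposite counts by gene. Fabp6 and Fgf15 had 15 control and 10 Taf4-inactivated peaks each, whereas Nr1h4, Nr0b2 and Gpbar1 had more in the Taf4-inactivated list. The median coding gene had 8.0 distal peaks in control and 6.0 in Taf4-inactivated enteroids.

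**Figure D3:**
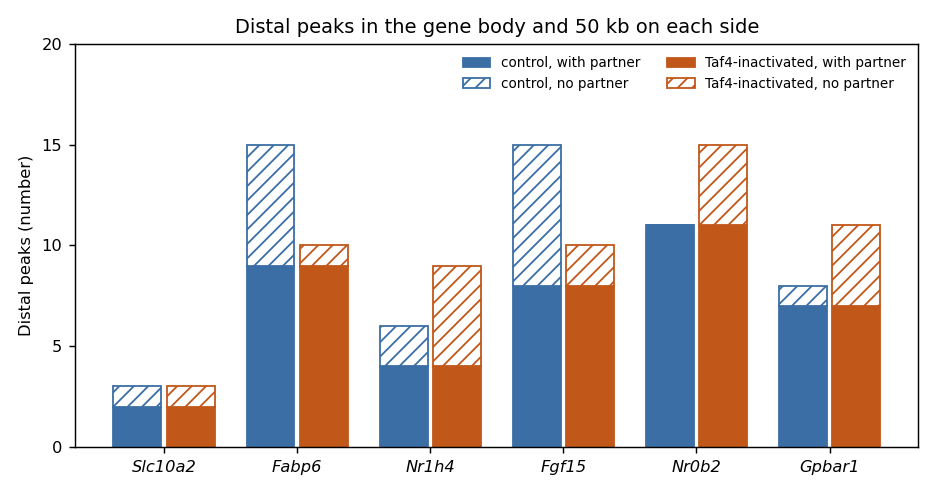
Number of distal peaks of each gene in control (blue) and Taf4-inactivated enteroids (orange), 1 library each, stacked as peaks with a partner in the other list (filled) and without one (hatched). The hatched part is larger in control at Fabp6 (6 against 1) and Fgf15 (7 against 2), and larger in Taf4-inactivated enteroids at Nr1h4 (5 against 2), Nr0b2 (4 against 0) and Gpbar1 (4 against 1).

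The 17 control peaks without a partner ranked between 0.77 and 62.6 with a median of 36.5, and the 17 Taf4-inactivated ones between 4.58 and 94.95 with a median of 44.8. Of the 17 control distal peaks of these genes at percentile 75 or more, 0 had no partner, where 18.3% of all such control peaks had none. Many of these 17 stood at start sites of other genes, where few peaks lacked a partner, and the background was not matched for this. Of the 21 Taf4-inactivated ones, 3 had no partner, the pair in introns of Nr1h4 and the one upstream of Nr0b2, a share near the background of 14.4%.

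Paired with their best overlapping peak, 41 distal sites could be ranked in both lists. Of these 20 ranked higher and 21 lower after Taf4 inactivation, and the median difference was −0.04, against −2.08 over all 35143 pairs. Differences of 25 points or more were found at 8 sites in the higher direction (19.5% of the 41, background 11.5%) and at 2 in the lower direction (4.88%, background 15.4%), with the latter both in Ccnjl, downstream of Fabp6. Of the 8, 3 were near Fabp6, 2 near Fgf15, 2 near Nr0b2 and 1 near Gpbar1, and 2 of them stood at the starts of Oraov1 and Gpn2. The median fold ratio was 1.33 over the 41 and 1.22 over all pairs, and 26 of the 41 lay above the latter. When peaks were ranked by −log10 p, 4 of the 8 and 1 of the 2 stayed past 25 points. Of these 10 sites, 9 had a control percentile under 75, and the exception was the Ccnjl intron peak 23.4 kb downstream of Fabp6. The backgrounds of 11.5% and 15.4% were not matched on control rank, so the contrasts with them cannot be read as particular to these genes.

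**Figure D4:**
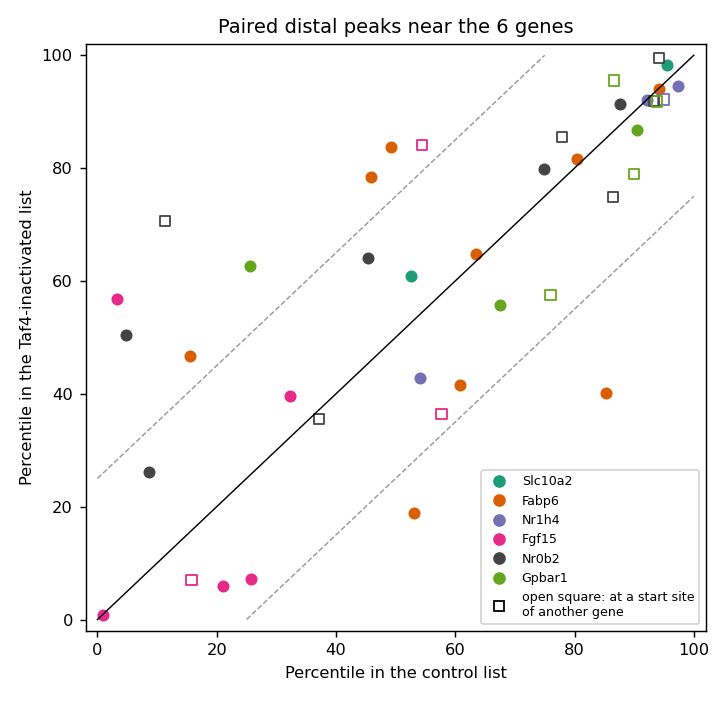
Percentile of fold enrichment of the 41 paired distal sites in the control list (horizontal axis) and in the Taf4-inactivated list (vertical axis), coloured by gene, with open squares for sites at start sites of other genes. The solid line marks equal rank and the dashed lines a difference of 25 points; 8 sites lie above the upper and 2 below the lower dashed line.

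Patterns of 7 kinds of DNA-binding factor were counted in 300-base windows at peak centres, on both strands. The IR-1 pattern was found in 1 of 65 control windows and 2 of 63 Taf4-inactivated windows of these genes, against 1.90% of all windows in both lists. The hexamer AGGTCA in IR-1 also ends the NR5A2 pattern, CAAGGTCA, so these may overlap. NR5A2 was found in 2 control (background 2.33%) and 1 Taf4-inactivated windows (background 2.34%), and HNF4, CAAAGTCCA, in 0 (background 0.746%) and 1 (background 1.46%). CDX was found in 7 control windows (10.8%, background 8.66%) and 11 Taf4-inactivated windows (17.5%, background 10.3%), AP-1 in 8 (12.3%, background 9.28%) and 9 (14.3%, background 12.1%), and GATA in 3 (4.62%, background 10.3%) and 7 (11.1%, background 12.8%). HNF1 was found in 1 (background 0.958%) and 2 (background 1.76%). These counts are small and are given as descriptions.

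Of the 27 other bile acid pathway genes, 19 had a promoter peak in the control list (background 68.4%) and 22 in the Taf4-inactivated list (background 65.6%), so the control count was near the background share. The median difference over the 18 with both was −0.17. The 5 export transporters of the enterocyte, Slc51a and Slc51b among them, all had a promoter peak in both lists and ranked higher by a median of 3.47 points, and Slc51a, picked out after its values were seen, stood at 53.0 in control and 77.6 after Taf4 inactivation. The 10 nuclear receptors and other DNA-binding factors, such as Rxra, the partner of FXR, also all had a peak in both, with a median difference of −1.53. The promoter peak of Rxra was near the floor of both lists, at 3.51 in control and 2.48 after Taf4 inactivation.

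A promoter peak in 1 list alone was found at 4 pathway genes in Taf4-inactivated enteroids (background 2.90%) and at 1 in control (background 5.70%), and 4 of these 5 came from the list of hepatic genes. Klb, the co-receptor of FGF15, had a promoter peak at percentile 72.9 in Taf4-inactivated enteroids alone, and so had Cyp8b1, the sterol 12-alpha-hydroxylase, at 79.25, Slc27a5, a bile acid ligase, at 56.7, and Akr1d1, a steroid reductase, at 53.3. Slc10a1, the hepatic uptake transporter, had one in control alone, at 14.5. Cyp7b1, an oxysterol hydroxylase, was the only pathway gene past 25 points, at 70.7 in control and 38.5 after Taf4 inactivation, where 9.08% of coding genes ranked lower and 5.93% higher by as much. Cyp7a1, Baat, Abcb11 and Slco1b2 had none in either list. Of 4 hepatocyte markers 1, Ttr, had a promoter peak, in both lists.

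**Figure D5:**
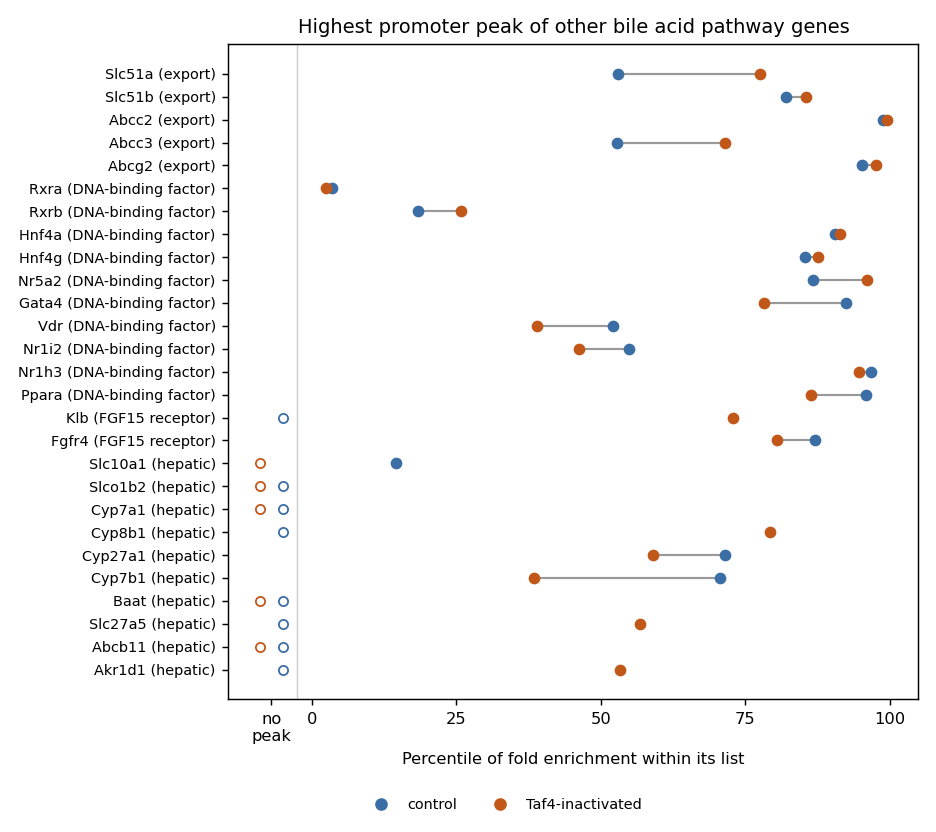
Percentile of fold enrichment (horizontal axis, 0 to 100 within each list) of the highest promoter peak of 27 other bile acid pathway genes, in control (blue) and Taf4-inactivated enteroids (orange), grouped by role. Open circles mark no peak; export genes and DNA-binding factors have both peaks, and the genes with a single filled circle are Klb, Slc10a1, Cyp8b1, Slc27a5 and Akr1d1.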

How the data were processed

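Peak lists of 1 control and 1 Taf4-inactivated library were used, grouped by the genotype in the labels. Per the study's methods and the labels, the authors aligned reads to mm9 with Bowtie 1.0.0 and retained those with a unique position. They ran MACS2 2.1.1 in broad mode on each library by itself, without a model and with shifted, extended reads. Treatment of duplicate and mitochondrial reads is not given in the sources used here. The deposited fold enrichment of a peak is a ratio to the background of the same library. The deposited −log10 p and −log10 q are averages over each broad peak. The deposited score, derived from the −log10 q, was not used.

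Positions were made 1-based and compared with NCBIM37 and its GENCODE annotation in Python 3.11.15 (pandas 2.3.3, numpy 2.4.6, scipy 1.17.1), and drawn with matplotlib 3.10.9. Tests on simulated data with known answers covered 6 of the steps and not every one. Relative depth was solved from the fold and p of peaks, so depth itself was only estimated. A pair of peaks was the mutually best overlapping one. The promoter value of a gene was its promoter peak with the highest fold. Peaks were annotated at their centre. Genes were matched by symbol, with Slc51a and Slc51b listed as Osta and Ostb, and 27 of 28 pathway genes were found, Malrd1 not being used here. RefSeq promoters were found for 5 of the 6 genes, all but Fgf15.

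The peaks named were the highest promoter peak and the 3 highest distal peaks of each gene and list, every distal peak without a partner at percentile 75 or more, and others where a count of 5 or fewer or a difference of 25 points called for them. The pathway genes named were those with a promoter peak in 1 list alone or past 25 points. Beyond these, Slc51b and Rxra were named for their roles, Slc51a after its values were seen, and the pathway genes without a peak in either list because they were 5 or fewer. The genes, lists and patterns were chosen with earlier results of these data known, and the peak stretches printed were chosen after their values were seen.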

Additional observations from a re-analysis of the deposited data

How the results depend on the processing

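No paired analysis was possible because each genotype had a single library, and leaving out a library would have left nothing to compare. Of the recomputed counts and shares, 79 remained within the limits set (1.5 times a count, or the interval of a share) and 19 moved. The order of the lists changed with the strength required. With a −log10 q of at least 2 in both lists, the members with a promoter peak were 3 in control and 4 after Taf4 inactivation, against 6 and 4, the distal peaks 33 and 46, and the shares without a partner 18.2% and 41.3%. With at least 5, the members with a promoter peak were 0 in control but 2 after Taf4 inactivation, the pathway genes 7 and 14, the distal peaks 13 and 26, and the shares without a partner 0.00% and 50%. Setting peaks with at least 2 against all peaks of the other list gave 12.1% in control and 23.9% in Taf4-inactivated enteroids. An overlap of 50% of both peaks gave 50% without a partner in both lists. Shares over all coding genes or all distal peaks under these settings are not given here. The changes therefore cannot be read as particular to these genes. A flank of 100 kb gave 102 control and 96 Taf4-inactivated distal peaks, and one of 20 kb gave 26 in each. Ranking by −log10 p or by width left 0 promoters higher by 25 points, and turned the difference of Nr0b2 to −9.31 and −11.0. A promoter distance of 2 kb or 5 kb took the difference of Slc10a2 from 9.98 to 2.61. With each gene left out in turn, added after the data had been seen, the share without a partner ran from 23.3% (without Fgf15) to 36.2% (without Nr0b2) in control and from 24.5% (without Nr1h4) to 33.3% (without Fabp6) in Taf4-inactivated enteroids. The cause of these movements was not tested. With no replicate, the spread between cultures is unknown, and a peak missing from a list may lie under its threshold.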
